A study of Mus musculus with 11 samples.

Results

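The 9 genes described here encode transcription factors that pass the rhythm of the circadian clock on to its outputs: the PAR-bZIP activators Dbp, Tef and Hlf, their competitor Nfil3, the REV-ERB repressors Nr1d1 and Nr1d2, the activator Rora, and the E-box repressors Bhlhe40 and Ciart. They were selected by gene symbol from the 36788 gene identifiers of a liver RNA-seq table, and the list was drawn up with their difference between FSH and saline livers already known. That difference is therefore given as a description, without a test. All 9 genes were in the table, and all 9 passed the minimum mean of 0.5 CPM that left 12733 genes for testing. CPM is the number of reads on a gene scaled to a library total of 1000000.

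Livers came from wild-type C57BL/6 female mice over 12 weeks of age. All of them, controls included, had been ovariectomized (OVX) and fed a high-fat diet, so the comparison does not include mice with ovaries or on a standard diet. One group of 5 mice (numbered 1, 2, 3, 4 and 6) received follicle-stimulating hormone (FSH) and the other group of 6 mice (1 to 6) received saline. The question was which liver transcripts differ when FSH is given without ovaries. The hour at which livers were taken is not given in the sources used here. The paper's methods describe a mixed genetic background, only partly C57BL/6, for all of its mice.

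In the molecular clock, BMAL1 paired with CLOCK or NPAS2 activates genes through E-boxes, and the products of several of these genes feed back on the loop or drive further rhythms. DBP, TEF and HLF bind D-box elements and activate genes of detoxification and lipid metabolism, whereas NFIL3 (also called E4BP4) binds the same elements and represses them. REV-ERBα (Nr1d1) and REV-ERBβ (Nr1d2) recruit corepressors to ROR elements (ROREs), where RORα (Rora) activates, and the Bmal1 gene (Arntl) is the classical gene under their joint control. BHLHE40 (DEC1) competes for E-boxes, and CIART (CHRONO) binds BMAL1 and represses it. In liver many of these transcripts rise and fall strongly within a day.

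The FSH libraries held 11410596 to 19909327 reads on genes and the saline libraries 10801891 to 16077442. With no read, a level of up to 0.151 CPM (deepest library) or 0.278 CPM (shallowest) remains possible, from 3 reads and counting error only. Hepatocyte markers summed to 97693 to 116757 CPM in FSH livers and 93966 to 120716 CPM in saline livers. In each of 9 marker lists (hepatocyte, Kupffer, endothelial, stellate, cholangiocyte, lymphocyte, adipocyte, pancreatic acinar and erythroid) 0 genes were called, and the summed ranges of the 2 groups overlapped in all 9. Kupffer cell markers, for example, summed to 93.3 to 256.9 CPM in FSH livers and 152.7 to 303.2 CPM in saline livers. Their part in the differences was not tested.

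Promoter bases are shown because most of these genes are themselves read through E-boxes, D-boxes or ROREs. RefSeq promoter windows of build GRCm38.p6 (the 250 bases before a transcript start) were held for 8 of the 9 genes, all except Bhlhe40. The E-box CACGTG lay in the windows of Ciart and Tef and in 6.02% of all 32851 windows. Both strands were searched. The RORE letters TAGGTCA lay in the window of Nfil3 and in 2.23% of all windows. The D-box letters TTANGTAA (2.06% of windows) and the other RORE form TGGGTCA (3.24%) lay in 0 of the 8. Ciart held 3 E-boxes, at 116 to 111, 58 to 53 and 44 to 39 bases before its start. The bases upstream of Ciart and, for comparison, of Nr1d1, Nr1d2 and Dbp, which stood furthest above saline levels in FSH livers and held none of the 4 motifs, run 5′ to 3′ on the gene's strand, with matches in capitals:
Ciart chr3:95882252-95882478 (minus strand): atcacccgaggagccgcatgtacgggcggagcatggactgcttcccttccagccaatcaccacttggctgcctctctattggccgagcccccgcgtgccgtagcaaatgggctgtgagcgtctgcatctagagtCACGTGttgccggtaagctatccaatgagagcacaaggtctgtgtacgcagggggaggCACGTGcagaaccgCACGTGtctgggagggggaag
Nr1d1 chr11:98775378-98775627 (minus strand): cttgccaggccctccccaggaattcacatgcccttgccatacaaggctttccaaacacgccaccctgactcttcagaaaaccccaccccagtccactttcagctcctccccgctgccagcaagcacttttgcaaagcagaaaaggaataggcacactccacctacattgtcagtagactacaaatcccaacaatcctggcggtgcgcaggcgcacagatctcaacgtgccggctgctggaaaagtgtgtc
Nr1d2 chr14:18239128-18239356 (minus strand): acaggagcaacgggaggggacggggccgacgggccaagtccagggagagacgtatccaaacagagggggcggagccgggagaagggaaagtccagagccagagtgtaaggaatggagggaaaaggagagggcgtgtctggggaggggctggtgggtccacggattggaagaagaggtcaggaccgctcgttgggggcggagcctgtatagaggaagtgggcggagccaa
Dbp chr7:45704997-45705087 (plus strand): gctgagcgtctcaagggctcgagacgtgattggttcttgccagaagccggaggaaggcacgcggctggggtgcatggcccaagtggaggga
The matches of Tef, 1 in each of its 2 windows, and of Nfil3 are given with their nearest bases. The E-boxes of Tef lay 127 to 122 and 138 to 133 bases before the respective start, and the Nfil3 match, 12 to 6 bases before its start, reads as the reverse complement of TAGGTCA:
Tef chr15:81802534-81802563 (plus strand): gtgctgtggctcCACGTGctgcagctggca
Tef chr15:81811264-81811293 (plus strand): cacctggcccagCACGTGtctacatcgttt
Nfil3 chr13:52981040-52981063 (minus strand): ggcgctcggaacTGACCTActaac
A match describes letters in the window and does not show that a factor is bound there.

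Dbp, the PAR-bZIP factor with the strongest daily rhythm in liver, showed the widest difference of the 9 genes. FSH-treated mice 1, 2, 3, 4 and 6 had 121.0, 115.5, 56.5, 79.6 and 42.6 CPM. The 6 saline livers had a lowest value of 3.40, a median of 4.39 and a highest value of 4.95 CPM. Every FSH liver lay far above every saline liver, and the lowest FSH liver was mouse 6. The means were 83.0 ± 34.8 CPM (SD, n = 5) and 4.30 ± 0.66 CPM (SD, n = 6), a ratio of 19.3. The log2 fold change was 4.02 (SE 0.23). All log2 fold changes were computed on log2(CPM + 0.5), and this pseudocount shrinks differences at low levels. The saline values rested on 41 to 68 reads per liver. In bulk tissue, fewer cells of a type and less RNA per cell cannot be told apart.

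Tef, the second PAR-bZIP factor, was higher in FSH livers by a smaller step. Its FSH values were 125.3, 149.1, 122.0, 120.3 and 110.6 CPM, and its saline values ran from 48.0 through a median of 59.5 to 69.6 CPM. The groups did not overlap, and the means were 125.5 ± 14.3 CPM (SD, n = 5) and 59.1 ± 8.08 CPM (SD, n = 6), 2.12 times apart (log2 fold change 1.08, SE 0.11).

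Hlf, the third, differed by less than its spread between livers. FSH livers had 46.5, 53.7, 47.7, 52.4 and 50.6 CPM, and saline livers 40.3 to 53.5 CPM with a median of 48.0. The log2 fold change was 0.07 (SE 0.09), so that the difference was not detectable at this spread.

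Nfil3, the repressor that competes with them, was lower in FSH livers. FSH livers had 14.2, 16.9, 24.7, 19.96 and 33.2 CPM against 56.5 to 86.4 CPM (median 68.0) in saline livers. Again the groups did not overlap, and FSH-treated mouse 6, lowest for Dbp, was the highest of the FSH livers here. The means were 21.8 ± 7.5 CPM (SD, n = 5) and 68.8 ± 11.6 CPM (SD, n = 6), and the log2 fold change was -1.68 (SE 0.18).

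**Figure D1:**
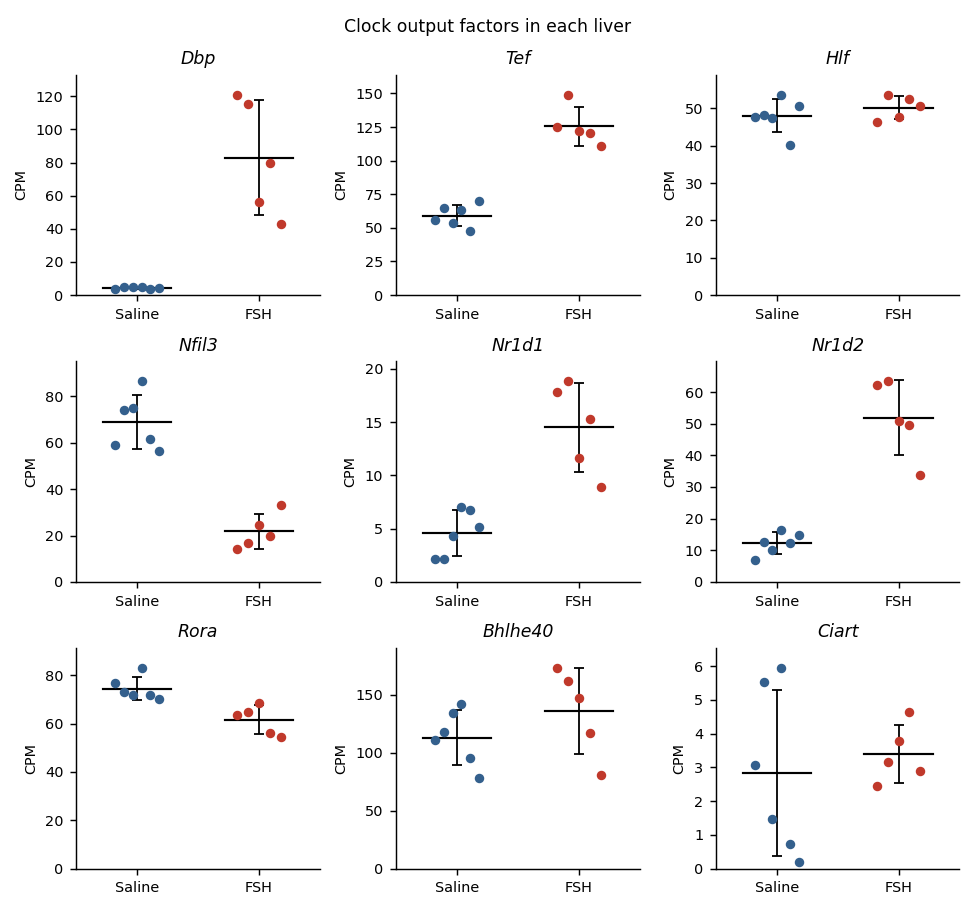
CPM of each of the 9 genes in each liver (vertical axes start at 0 and differ between genes), with points for single mice and lines for group means with SD. Dbp, Tef, Nr1d1 and Nr1d2 lay higher in all 5 FSH livers than in any saline liver, Nfil3 and Rora lay lower, and Hlf, Bhlhe40 and Ciart overlapped.

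The REV-ERB genes were both higher in FSH livers. Nr1d1 had 17.8, 18.8, 11.7, 15.3 and 8.94 CPM in FSH livers, and 2.11 to 7.0 CPM with a median of 4.72 in saline livers. The groups did not overlap, but the closest pair, FSH-treated mouse 6 (8.94) and saline-treated mouse 4 (7.0), was not far apart. The mean was 14.5 ± 4.16 CPM (SD, n = 5) against 4.58 ± 2.14 CPM (SD, n = 6), with a log2 fold change of 1.64 (SE 0.29).

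The difference was wider for Nr1d2. FSH livers had 62.1, 63.4, 50.9, 49.7 and 33.7 CPM, and saline livers 6.81 to 16.5 CPM with a median of 12.6. The groups did not overlap. The ratio of means was 4.24, with a log2 fold change of 2.06 (SE 0.20).

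Rora, which activates at the elements where REV-ERBs repress, was slightly lower in FSH livers, and here too the groups did not overlap. FSH livers had 63.6, 65.0, 68.4, 55.9 and 54.6 CPM and saline livers 70.3 to 82.9 CPM with a median of 72.5. The means, 61.5 ± 5.98 CPM (SD, n = 5) and 74.5 ± 4.68 CPM (SD, n = 6), differed by a log2 fold change of -0.28 (SE 0.08), under the 2-fold threshold. Rorb, a ROR of the nervous system, was at or under the floor of 3 reads, and Bhlhe41, the close relative of Bhlhe40, lay below the minimum over all 11 livers, with 0.753, 1.77, 0.283, 0.258 and 0.263 CPM in FSH-treated mice 1, 2, 3, 4 and 6 and at most 0.350 CPM in saline livers.

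Bhlhe40 overlapped widely between the groups. FSH livers had 172.6, 161.9, 147.3, 116.8 and 80.9 CPM, and saline livers 77.9 to 141.7 CPM with a median of 114.2, a log2 fold change of 0.24 (SE 0.19). Ciart had 2.46, 3.17, 3.79, 4.65 and 2.89 CPM in FSH livers and 0.187 to 5.94 CPM with a median of 2.28 in saline livers. Its saline livers were by far the more variable, with a coefficient of variation (SD as a percentage of the mean) of 86.9% against 25.1% with FSH. Saline-treated mouse 6 had 3 reads of Ciart and saline-treated mouse 5 had 8. The log2 fold change was 0.62 (SE 0.48).

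A gene was called where the adjusted p of limma's test (Benjamini-Hochberg over all genes) was under 0.05 and the absolute log2 fold change over 1. Of all 12733 genes, 233 (1.83%) were called, 113 higher with FSH (0.887%) and 120 lower (0.942%). Of the 9 genes, Dbp, Tef, Nr1d1 and Nr1d2 were called higher and Nfil3 lower, and nothing is read from this since the list was drawn up on the same contrast. By adjusted p alone 1350 genes (10.6%) passed, 788 higher (6.19%) and 562 lower (4.41%), and of the 9 genes only Rora was added. The ranges of the 2 groups did not overlap for 849 genes (6.67%), 503 higher (3.95%) and 346 lower (2.72%). The median log2 fold change of all genes was 0.02. The p-values set the difference between the groups against the spread between these livers. They do not cover a condition that all livers of 1 group shared.

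**Figure D2:**
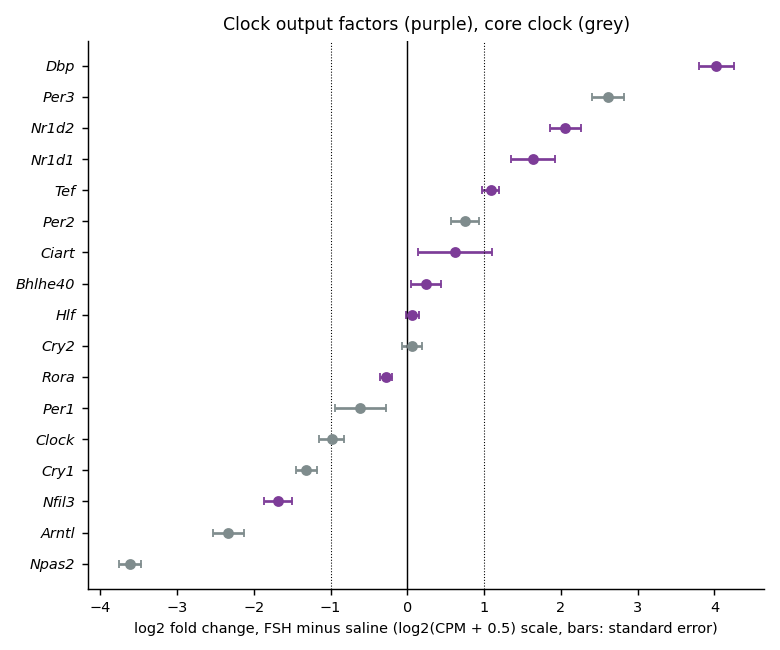
Log2 fold change of the 9 genes (purple) and of core clock genes (grey), FSH minus saline on the log2(CPM + 0.5) scale, with standard errors as bars and dotted lines at the 2-fold threshold. Dbp stood highest at 4.02, Nfil3 was the lowest of the 9 at -1.68, and Npas2 the lowest of the core clock genes at -3.61, a value that depends on the pseudocount since its FSH livers were at or near 0 reads.

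Several of these genes have a partner on the opposite strand, and whether reads were counted by strand is not given in the sources used here. Sphk2, which shares 539 exon bases with Dbp, had 51.1 against 51.7 CPM (log2 fold change -0.02, adjusted p = 0.94 by limma). Thra, which encodes a thyroid hormone receptor and shares 263 exon bases with Nr1d1, went the other way from Nr1d1, with 8.84 ± 0.53 CPM in FSH livers and 13.1 ± 1.59 CPM in saline livers (adjusted p = 0.00386, limma). The antisense gene C920021L13Rik overlaps Ciart without shared exon bases and gave a log2 fold change of 0.44 (adjusted p = 0.233, limma). The antisense genes that overlap Tef, Rora and Bhlhe40 held hardly any reads or none.

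Compared between genes on a scale of CPM per kb of annotated exon, which removes gene length, the order of the 9 genes differed between the groups. In saline livers the highest levels were those of Nfil3, 33.9, and Bhlhe40, 24.0, followed by Tef, 7.51, Hlf, 7.18, Rora, 5.70, Nr1d2, 2.27, Nr1d1, 1.49, Dbp, 1.44, and Ciart, 1.25. Bhlhe40 lay above Tef and Rora above Nr1d2 without overlap, while the other neighbours overlapped in range. In FSH livers the highest mean levels were Bhlhe40, 28.9, Dbp, 27.7, and Tef, 15.95, and the lowest were Nr1d1, 4.72, Rora, 4.71, and Ciart, 1.5. Only Hlf above Nr1d1 and Rora above Ciart were free of overlap there. Compared within each liver, Nfil3 lay above Bhlhe40, Hlf above Rora and Nr1d2 above Nr1d1 in all 6 saline livers. Dbp lay above Tef in all 5 FSH livers, and the other overlapping neighbours changed order between livers. Dbp moved from the eighth place in saline livers to the second in FSH livers.

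The share of Dbp in the PAR-bZIP transcripts differed widely as well. The sum of Dbp, Tef and Hlf was 51.2 ± 13.1 CPM per kb (SD, n = 5) with FSH and 16.1 ± 1.70 (SD, n = 6) with saline, and Dbp made up 39.7 to 63.9% of it in FSH livers and 7.41 to 10.5% in saline livers. The ratio of this sum to Nfil3 was between 2.19 and 9.06 in FSH livers and between 0.414 and 0.637 in saline livers. On this per-kb scale the PAR-bZIP sum exceeded Nfil3 in every FSH liver and stayed below it in every saline liver. This crossing depends on the division by length (2026 exon bases for Nfil3, 7867 for Tef and 6681 for Hlf). In CPM without it, Tef and Hlf together already exceeded Nfil3 in every saline liver (means 59.1, 48.0 and 68.8 CPM). The length joins all annotated exons of a gene and need not be that of the expressed transcript. The REV-ERB sum was 14.3 ± 3.50 CPM per kb (SD, n = 5) with FSH and 3.75 ± 1.22 (SD, n = 6) with saline.

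**Figure D3:**
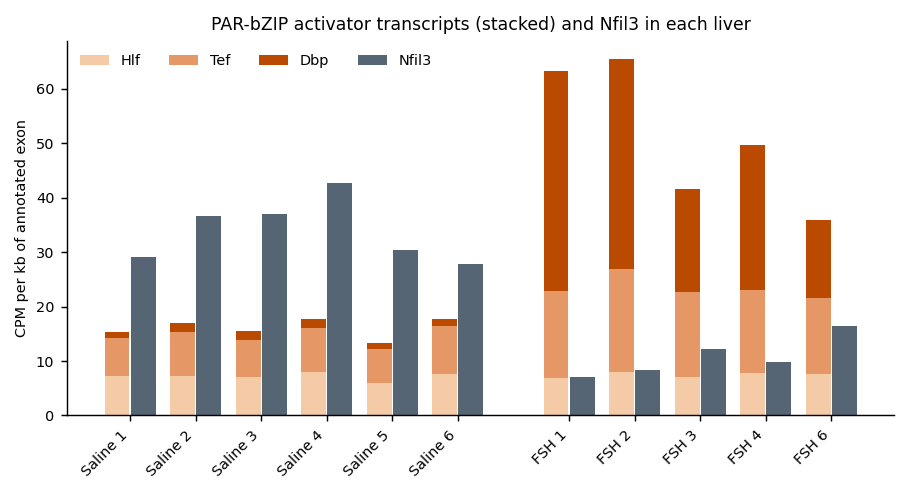
Levels of Hlf, Tef and Dbp (stacked bars) and of Nfil3 (grey bars) in CPM per kb of annotated exon in each liver. The PAR-bZIP sum lay between 35.9 and 65.6 in FSH livers and between 13.4 and 17.8 in saline livers.

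For several of the 9 genes the FSH livers had a similar order. For Dbp the order was mouse 1 above 2, 4, 3 and 6, and Nfil3 had exactly the reverse order, with 0 of 10 pairs of livers ordered as by Dbp. Of the 10 pairs, 9 were ordered as by Dbp for Nr1d1 and for Bhlhe40, 8 for Tef and for Nr1d2, 6 for Rora, 5 for Hlf and 4 for Ciart. FSH-treated mouse 6 was the lowest for Dbp, Tef, Nr1d1, Nr1d2, Rora and Bhlhe40. It also had the fewest reads of the FSH libraries (11410596) and mouse 1 the most (19909327), and the part of depth in the order was not tested. Between the highest and the lowest FSH liver the difference was 2.84 times for Dbp, 2.34 for Nfil3 and 2.10 for Nr1d1, but 1.35 for Tef and 1.16 for Hlf. Among saline livers it was 1.45 for Dbp, 1.53 for Nfil3, 3.32 for Nr1d1, 1.45 for Tef and 1.33 for Hlf, so that the spread was wider with FSH for the first 2 of these genes and wider with saline for the others. It was also wider with saline for Nr1d2 (2.43 against 1.88) and Ciart (31.8 against 1.89), and wider with FSH for Bhlhe40 (1.82 against 2.13) and Rora (1.18 against 1.25). The log2 ratio of Dbp to Nfil3 put both genes into 1 number per liver: 3.05, 2.74, 1.17, 1.97 and 0.35 in FSH-treated mice 1, 2, 3, 4 and 6, and between -4.04 and -3.67 in saline livers. The group means, 1.86 ± 1.11 (SD, n = 5) and -3.85 ± 0.13 (SD, n = 6), lay 5.70 apart. For this ratio the spread was wider among FSH livers than among saline livers.

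**Figure D4:**
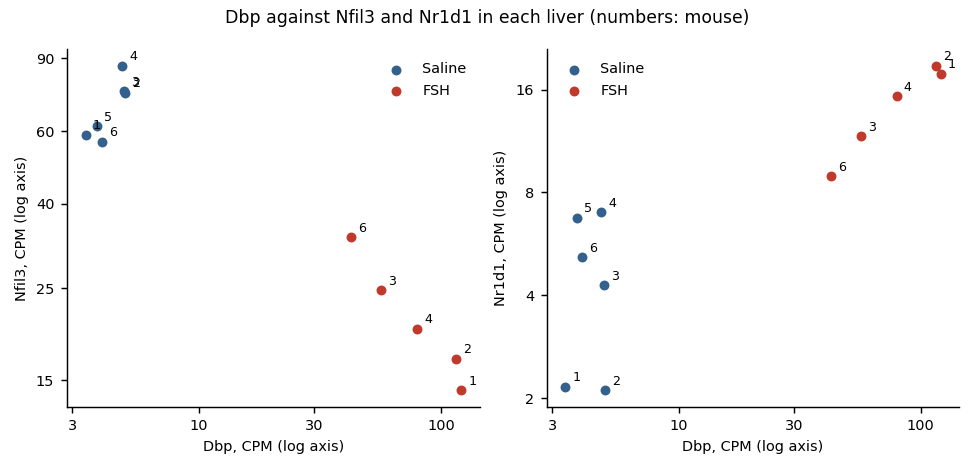
Nfil3 (left) and Nr1d1 (right) against Dbp in each liver, in CPM on log axes, numbered by mouse. FSH livers run from mouse 6 to mice 1 and 2, downward for Nfil3 and upward for Nr1d1, while saline livers lie close together along the Dbp axis.

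Within the 6 saline livers, whose spread did not enter the choice of the genes, Dbp was compared with each of the other 8 genes. Pearson's r on log2 values was highest for Nfil3, 0.85 (exact two-sided permutation p = 0.0694, adjusted over 8 relations 0.556; Spearman's rho 0.60, permutation p = 0.242, adjusted 0.752), and was 0.86 without the 2 livers farthest from the median of Dbp (saline-treated mice 1 and 5). For Bhlhe40 r was 0.61 (permutation p = 0.213, adjusted 0.689), for Nr1d2 0.53, for Ciart 0.43, for Hlf 0.39 and for Tef 0.32. Rora and Nr1d1 had r of 0.13 and 0.09. None of the 8 relations passed, and the smallest p that 6 livers allow is 0.00278. Dbp spanned only 3.40 to 4.95 CPM here, on 41 to 68 reads per liver. Counting error is therefore a part of this spread, and how large a part was not tested. Without mice 1 and 5 the r of Tef, Hlf, Nr1d1 and Nr1d2 turned negative (-0.66, -0.32, -0.36 and -0.42), while those of Bhlhe40, Ciart and Rora were 0.92, 0.84 and 0.41.

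Over all 11 livers, with each value centred on its group mean, Nfil3 ran against Dbp, with an r of -0.67. This is opposite in sign to the saline livers alone. On the same centred values Bhlhe40 ran with Dbp (0.73), as did Nr1d2 (0.66), Nr1d1 with Nr1d2 (0.73), Rora with Bhlhe40 (0.77) and Tef with Hlf (0.70). In an exact permutation test within the groups, none of the 8 relations with Dbp passed (adjusted p 0.166 for Nfil3 and 0.0612 for Nr1d2). The pairs without Dbp were not tested. All of these values are descriptions over 11 livers that share libraries and depth. Measured this way, the genes most like Dbp outside the list were H2-Q1 (0.93), which belongs to a family of closely related genes whose reads can be shared, Nipa1 (0.92) and Smim7 (0.91). Those most like Nr1d1 were Gm16559 (0.93), Plekhg5 (0.92) and Pheta1 (0.91), and those most like Nfil3 were Rab29 (0.90), Lipc (0.90), the hepatic lipase, and the unnamed gene ENSMUSG00000097758 (0.89). Each is the top of a ranking of all tested genes over 11 livers, where values this high can arise by chance, and none was tested. Nipa1 (means 0.99 CPM with FSH and 0.89 with saline) and Gm16559 (1.72 and 1.67 CPM) also rest on few reads.

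The core clock genes supply the input of the 9 genes. Of 8 tested, Per3 was called higher and Npas2, Arntl and Cry1 lower, with a list median of -0.80 beside 0.02 over all genes. Arntl, which encodes BMAL1, stood at 3.33 ± 1.31 CPM in the 5 FSH livers (SD) against 18.1 ± 3.43 CPM in the 6 saline livers (log2 fold change -2.33, adjusted p = 1.14e-05 by limma). Npas2, its partner, reached at most 2 reads in any FSH liver against a mean of 5.91 CPM in saline livers, at least 22.5-fold lower when set against the floor of 3 reads per library. It is the lowest gene of its lists at this bound too, so their medians do not change. Per3 was 29.7 ± 9.27 CPM against 4.32 ± 1.0 CPM (adjusted p = 6.91e-06, limma) and Cry1 fell by 1.31 on the log2 scale (adjusted p = 2.55e-05, limma). Arntl and Cry1 had the same order of FSH livers as Nfil3. Clock was close to the fold threshold (log2 fold change -0.99, adjusted p = 0.00161, limma), Per2 was at 0.75 (adjusted p = 0.015), and Per1 and Cry2 did not pass (-0.61 and 0.06).

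Genes known as PAR-bZIP targets, mostly of drug and lipid metabolism, were 16, all of them tested. Of these, 3 were called higher and 1 lower, and by adjusted p alone 7 were higher and 3 lower, with a list median of 0.67. Acot3, a peroxisomal acyl-CoA thioesterase, had 233.0 ± 26.4 CPM (SD, n = 5) against 73.8 ± 17.2 CPM (SD, n = 6), and rose by 1.68 on the log2 scale (SE 0.14, adjusted p = 6.98e-06 by limma). Abcb1a, a drug efflux pump, rose by 1.32 (adjusted p = 0.00136, limma) and Cyp7a1, the rate-limiting enzyme of bile acid synthesis, by 1.06 (adjusted p = 0.00884, limma). The call of Cyp7a1 was lost without any 1 of FSH-treated mice 2 or 6 or saline-treated mice 4 or 5, where its log2 fold change was between 0.92 and 0.99. Cyp2b10, a drug-induced cytochrome P450, was the listed gene called lower and fell by 1.79 (adjusted p = 0.00285, limma), from a variable 49.6 ± 29.6 CPM in saline livers to 12.5 ± 3.85 CPM. Cyp2a4 and Cyp2a5, a steroid hydroxylase and a coumarin hydroxylase known to depend on DBP, are near-identical paralogs whose reads can be shared, and they lay on the fold threshold at 0.99 and 1.00. Without FSH-treated mouse 2 the number called was 7, since Cyp2a4 and Cyp2a5 passed as higher, Cyp4a10 and Cyp4a14 passed as lower, and Cyp7a1 did not pass.

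Genes known as REV-ERB and ROR targets were 15, of which 5 were called lower and 0 higher (7 lower by adjusted p alone), with a list median of -0.45. Of these 5, Arntl, Npas2 and Cry1 are also core clock genes. Insig2, which retains SREBP precursors in the endoplasmic reticulum, had 124.1 ± 28.4 CPM against 334.9 ± 57.2 CPM, a log2 fold change of -1.44 (adjusted p = 2.07e-05, limma). Elovl3, a rhythmic fatty acid elongase, fell by 1.58 (adjusted p = 0.0165, limma), although its groups overlapped. Avpr1a, a vasopressin receptor, passed by adjusted p alone (-0.88). The bile acid enzymes Cyp8b1 and Cyp7b1, the gluconeogenic G6pc and Apoc3 had log2 fold changes of -0.11, -0.12, -0.14 and 0.04 and did not pass.

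Of 5 other E-box outputs, 0 were called and 2 passed by adjusted p alone in limma's test, Gys2, liver glycogen synthase (0.79, adjusted p = 0.000167), and Nampt, which makes an NAD precursor (0.57, adjusted p = 0.00337). Wee1, a cell-cycle kinase, was at 1.02 with an adjusted p of 0.0505 in limma. At an unadjusted p under 0.05, 3 of the 5 passed, beside 3196 of all 12733 genes, and edgeR called 0 and DESeq2 1 of them. Of 9 corepressors and turnover factors of these proteins, 0 passed either rule in limma (1 at an unadjusted p under 0.05), and 0 were called by edgeR or DESeq2. The smallest adjusted p in limma's test were those of Csnk1d, a kinase of PER proteins (0.124), Hdac3, the deacetylase that REV-ERBs recruit (0.245), and the corepressor Ncor1 (0.286). The list had log2 fold changes between -0.25 and 0.18 and a list median of -0.01.

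**Figure D5:**
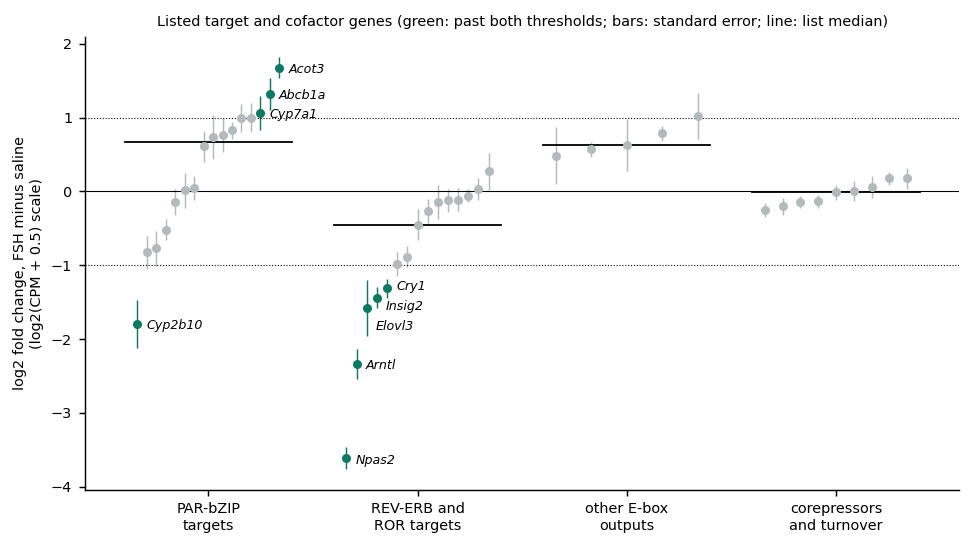
Log2 fold changes (FSH minus saline) of the listed target and cofactor genes with standard errors, list medians as lines and dotted lines at the 2-fold threshold. Called genes are named, from Acot3 at 1.68 to Npas2 at -3.61, and the corepressor and turnover genes lie between -0.25 and 0.18.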

How the data were processed

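CPM values of 11 liver libraries were deposited by the authors, in a table in which each library sums to 1000000 and no scaling between libraries is seen. Per the labels, whole liver was digested with papain before RNA extraction and libraries were made with a NEBNext Ultra kit. The submitters' processing notes name FastQC, cutadapt, Trim Galore, STAR, RSEM and the build mm10, while the annotation and the strand setting are not given in the sources used here. All values (100%) were whole multiples of 1 step per library within a tolerance of 0.02, which gave back the reads. Of the identifiers, 35555 were named through GENCODE M21 (GRCm38), and 12 rows that share a symbol kept their identifier.

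After removal of genes averaging under 0.5 CPM, log2(CPM + 0.5) values went into limma 3.58.1 under R 4.3.3 (eBayes with trend, Benjamini-Hochberg over 12733 genes), with the study's thresholds. Both groups entered 1 fit with no covariate. The libraries of 1 group differed beyond sampling noise (lowest mean chi-square per gene 10.7). The members and lists were chosen with earlier results of these data known. Named genes were all members, relatives and core clock genes, the called genes of each other list (where none was called, up to 3 with the smallest p), genes overlapping a member, and the 3 genes most like Dbp, Nr1d1 and Nfil3. Other list genes named were chosen after their values were seen. Alternatives were other pseudocounts (0.1 and 1 CPM), filters (none and 5 CPM) and scalings, limma without a trend or with array weights or with the replicate number as a block, omission of single libraries, thinned reads, and edgeR 4.0.16 and DESeq2 1.42.0 on the recovered reads. The fit was tested on simulated data. A gene of the lists is not reported here. Promoter windows are from RefSeq on GRCm38.p6, printed only where they lie before the GENCODE gene start, except for the short stretches around the matches of Tef and Nfil3, which lie inside the annotated gene.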

Additional observations from a re-analysis of the deposited data

Results flagged for a closer look

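Of 48 groups of livers checked for a single liver far from the rest, 2 were flagged, and chance alone flags about 1 in 20. Insig2 was flagged because FSH-treated mouse 2 had 174.0 CPM, while the other FSH livers had 106.1 to 119.6 CPM. Npas2 was flagged because FSH-treated mouse 1 had 0.1005 CPM, which is 2 reads, and the other FSH livers had 0.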

How the results depend on the processing

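The 5 called genes among the 9 (Dbp, Tef, Nr1d1 and Nr1d2 higher, Nfil3 lower) were called under each of the settings run. Their log2 fold changes without 1 library each were 3.86 to 4.23 (Dbp), 1.02 to 1.13 (Tef), 1.47 to 1.79 (Nr1d1), 1.91 to 2.20 (Nr1d2) and -1.85 to -1.55 (Nfil3), and those of Hlf, Rora, Bhlhe40 and Ciart kept their sign, with the widest ranges for Ciart (0.25 to 0.90) and Bhlhe40 (0.14 to 0.42). The number of genes called was 233, 1350 by adjusted p alone, 197 to 273 without 1 library each, 311 with edgeR and 320 with DESeq2. Listed PAR-bZIP targets called were 4, 10 by adjusted p alone and 3 to 7 without 1 library each (7 without FSH-treated mouse 2). Of the other E-box outputs 0 were called, 1 (Wee1) with upper-quartile scaling, DESeq2 or thinned reads, 2 by adjusted p alone, and 0 to 1 without 1 library each (1 when saline-treated mouse 2, saline-treated mouse 6 or FSH-treated mouse 6 was omitted). The correlation of Dbp with Nfil3 was 0.85 within saline livers and -0.67 on group-centred values over all livers (adjusted p 0.166 by an exact permutation test). The latter includes the FSH livers, where 0 of 10 pairs were ordered for Nfil3 as by Dbp, and does not describe the saline livers alone. Those with Nr1d1, Nr1d2 and Rora ranged from -0.54 to 0.53, -0.16 to 0.72 and -0.41 to 0.45 without 1 saline liver each, and those with Tef, Hlf and Ciart from 0.10 to 0.58, 0.16 to 0.54 and 0.26 to 0.80. The cause was not tested.

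Other scalings moved the median log2 fold change of all genes by at most 0.03. Same-numbered livers did not clearly deviate together (correlations -0.07 to 0.36, with 1 of 5 numbers correlating best with its own). This check on expression cannot decide whether the numbers pair the mice. With the replicate number as a block, 251 genes were called, 215 of them shared with the fit without it, and the same 5 of the 9 genes. Cyp7a1 lost its call under this block (0.92) and with array weights (0.90). Clock (-0.99) gained a call under this block, with the pseudocount of 0.1 CPM, both other scalings, array weights, edgeR, DESeq2 and in 5 of the fits without 1 library (down to -1.08). Core clock genes called, 4, ranged from 4 to 5 without 1 library each and from 3 (5 CPM filter, which removes Npas2) to 6 (adjusted p alone), and listed REV-ERB and ROR targets, 5, from 5 to 6 and from 4 to 7 likewise. Ciart has no value under the 5 CPM filter. Depth limits Ciart and the saline values of Dbp and Nr1d1, which rest on few reads.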
